A study of Homo sapiens with 12 samples.

Results

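The genes described here are 10 genes of insulin signalling and of the FOXO transcription factors that it restrains. They are IRS1, IRS2, INSR, CCNG2, FOXO1, FOXO3, BCL6, CITED2, TXNIP and KLF6. Every probe annotated to 1 of these symbols was taken, which gave 13 probes, and no threshold on a measured change was used. The genes were however chosen with earlier results of these data known. Counts below and the shares over all probes beside them are therefore descriptions. The annotation names only probes among the 14853 in the authors' processed table, of 48802 on the array, so other probes of these genes were not looked for. All 14853 had a detection p-value under 0.01 on 1 or more arrays, so the 13 probes were already selected for detection. A probe was counted as detected when its detection p-value was under 0.01 on 3 or more of the 12 arrays. Of the 13 probes, 12 were detected, covering 9 genes, among 13830 detected probes in all. The INSR probe failed this criterion, with a detection on 2 of 12 arrays. CCNG2 was read by 3 probes and FOXO3 by 2, and each other gene by 1.

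The study measured RNA in Cal51, a line of human breast carcinoma cells, with Illumina bead arrays. Cells were transfected with a control siRNA or with an siRNA against IPMK (siIPMK), the inositol polyphosphate multikinase, and were collected after 72 hours. Each siRNA was used without further treatment and with mitomycin C (MMC), a drug that crosslinks DNA, over the last 24 hours, which gives 4 groups of 3 arrays from experiments numbered 1 to 3. Only the cytoplasmic RNA released by digitonin was measured, so a changed level may come from synthesis, decay or nuclear export, and these cannot be told apart here, nor can fewer cells with a transcript and less of it per cell.

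Insulin and related growth factors act through receptor tyrosine kinases such as INSR, whose docking proteins IRS1 and IRS2 recruit phosphoinositide 3-kinase. The lipid it makes activates the kinase AKT, which phosphorylates FOXO proteins and keeps them out of the nucleus. When the pathway is quiet, FOXO proteins enter the nucleus and raise genes that slow growth, together with IRS2 and INSR themselves, which is a known feedback loop. IPMK phosphorylates inositol phosphates and is also known to phosphorylate phosphoinositides upstream of AKT.

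Between 12122 and 13458 probes were detected per array, with a median of 20 or 21 beads per probe, and arrays of a group correlated across probes with r of at least 0.976. On the first principal component, with 66.6% of the variance, the siIPMK arrays of experiment 1 lay at 7.90 without MMC and 14.2 with it, while the control siRNA arrays spanned -36.4 to -27.6 and the other siIPMK arrays 38.9 to 46.4. No annotated probe carried the name IPMK, so the depletion itself was not read. The cells had the epithelial markers KRT8, KRT18, KRT19 and EPCAM. CDH1, KRT7, GATA3 and ESR1 had no annotated probe of their name and were not read. No annotated probe carried the name of any of the 5 leukocyte markers, so these were not read. Of 5 fibroblast and endothelial markers, 4 had an annotated probe, and PDGFRB and PECAM1 were detected. COL1A1, COL3A1 and VWF were not among the detected named probes. With siIPMK without MMC, PDGFRB differed by 0.43 ± 0.18 (adjusted p = 0.0716) and PECAM1 by -0.17 ± 0.22 (adjusted p = 0.569). The summed intensity of the 4 epithelial markers was 10967 to 12306 with control siRNA and 16874 to 21333 with siIPMK, both without MMC. Of the 4, KRT18 did not follow, at -0.36 ± 0.16 (adjusted p = 0.0829), and of the 2 detected mesenchymal or basal markers CD44 rose by 2.56 ± 0.25 (adjusted p = 1.26e-05) while VIM differed by -0.12 ± 0.11 (adjusted p = 0.421). The part of these markers in the changes below was not tested.

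Promoter sequences come from RefSeq on GRCh38.p14, as windows from 250 bases before to 50 bases after each annotated start, and all 10 genes had a window, 17 windows in all. The patterns of letters searched on both strands were the FOXO core GTAAACA, the insulin response core CAAAACA, and CACGNG repeated after a gap of 5 bases, the paired E-box form through which glucose-sensing Mondo factors are known to act on TXNIP. GTAAACA was in 3.42% of all 35116 windows, CAAAACA in 4.92% and the pair in 0.057%. Counted by gene, as below, these were 4.19%, 6.05% and 0.0732% of 27305 genes. Of the 10 genes, TXNIP alone held GTAAACA and the pair, and IRS2 alone held CAAAACA, read as TGTTTTG on the strand shown. The windows of IRS2 and CCNG2 are shown because these 2 genes had the largest changes of the 10, and that of TXNIP because it holds 2 of the patterns. Capitals mark the patterns, each sequence runs 5′ to 3′ on the gene's strand, and a match is a description of letters and not a bound site.
IRS2, chr13:109786534-109786833, minus strand, with TGTTTTG beginning at position -40: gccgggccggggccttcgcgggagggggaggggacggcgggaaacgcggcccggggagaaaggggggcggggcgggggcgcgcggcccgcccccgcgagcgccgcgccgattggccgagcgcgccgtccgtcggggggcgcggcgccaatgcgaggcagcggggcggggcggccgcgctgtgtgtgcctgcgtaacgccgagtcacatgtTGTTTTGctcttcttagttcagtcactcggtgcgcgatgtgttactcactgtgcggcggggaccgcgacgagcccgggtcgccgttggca
CCNG2, chr4:77156957-77157256, plus strand, with none of the 3 patterns: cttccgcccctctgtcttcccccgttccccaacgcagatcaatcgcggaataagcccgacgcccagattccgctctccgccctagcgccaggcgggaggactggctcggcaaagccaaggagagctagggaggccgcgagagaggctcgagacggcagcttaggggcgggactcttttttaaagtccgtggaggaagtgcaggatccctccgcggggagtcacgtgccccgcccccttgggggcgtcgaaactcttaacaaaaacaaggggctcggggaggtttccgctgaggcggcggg
TXNIP, chr1:145996530-145996829, minus strand, with GTAAACA beginning at position -124 and the pair at -88: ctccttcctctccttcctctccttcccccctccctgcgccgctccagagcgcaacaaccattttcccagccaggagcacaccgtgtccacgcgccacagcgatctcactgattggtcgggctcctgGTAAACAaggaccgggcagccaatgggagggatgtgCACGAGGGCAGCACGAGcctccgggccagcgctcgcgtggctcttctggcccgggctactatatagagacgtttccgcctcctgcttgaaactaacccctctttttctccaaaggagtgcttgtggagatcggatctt
The other annotated window of TXNIP held none of the patterns. The windows of IRS2 and CCNG2 thus had none of the 3 patterns in common.

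Values below are background-corrected, quantile-normalised log2 intensities, given in the order of experiments 1, 2 and 3. Levels are compared between arrays for 1 probe, never between probes. Each change is a difference of group means on this log2 scale with its standard error (3 arrays per group), from limma's moderated test in 1 fit over all 12 arrays and all 13830 detected probes. The threshold for a call was 0.05 after Benjamini-Hochberg adjustment, and every adjusted p below is from this test unless another fit is named.

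After IPMK depletion without MMC, 7 of the 12 detected probes rose and 0 fell, from 5 of the 9 genes: IRS2, CCNG2, FOXO1, FOXO3 and BCL6. The count was 4 without control array 2, siIPMK array 2 or siIPMK array 3. Over all detected probes 19.7% rose and 19.2% fell. The median change of the 12 probes was 0.39, beside -0.01 over all probes. Read as 1 probe per gene, 5 of 9 rose, against 20.3% of 9409 genes. IRS2 and probes A and C of CCNG2 rose between 1.85- and 2.16-fold, and the other called probes by less. Replicates of both groups were clear of each other for 8 of the 12 probes, as for 50.9% of all probes.

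**Figure D1:**
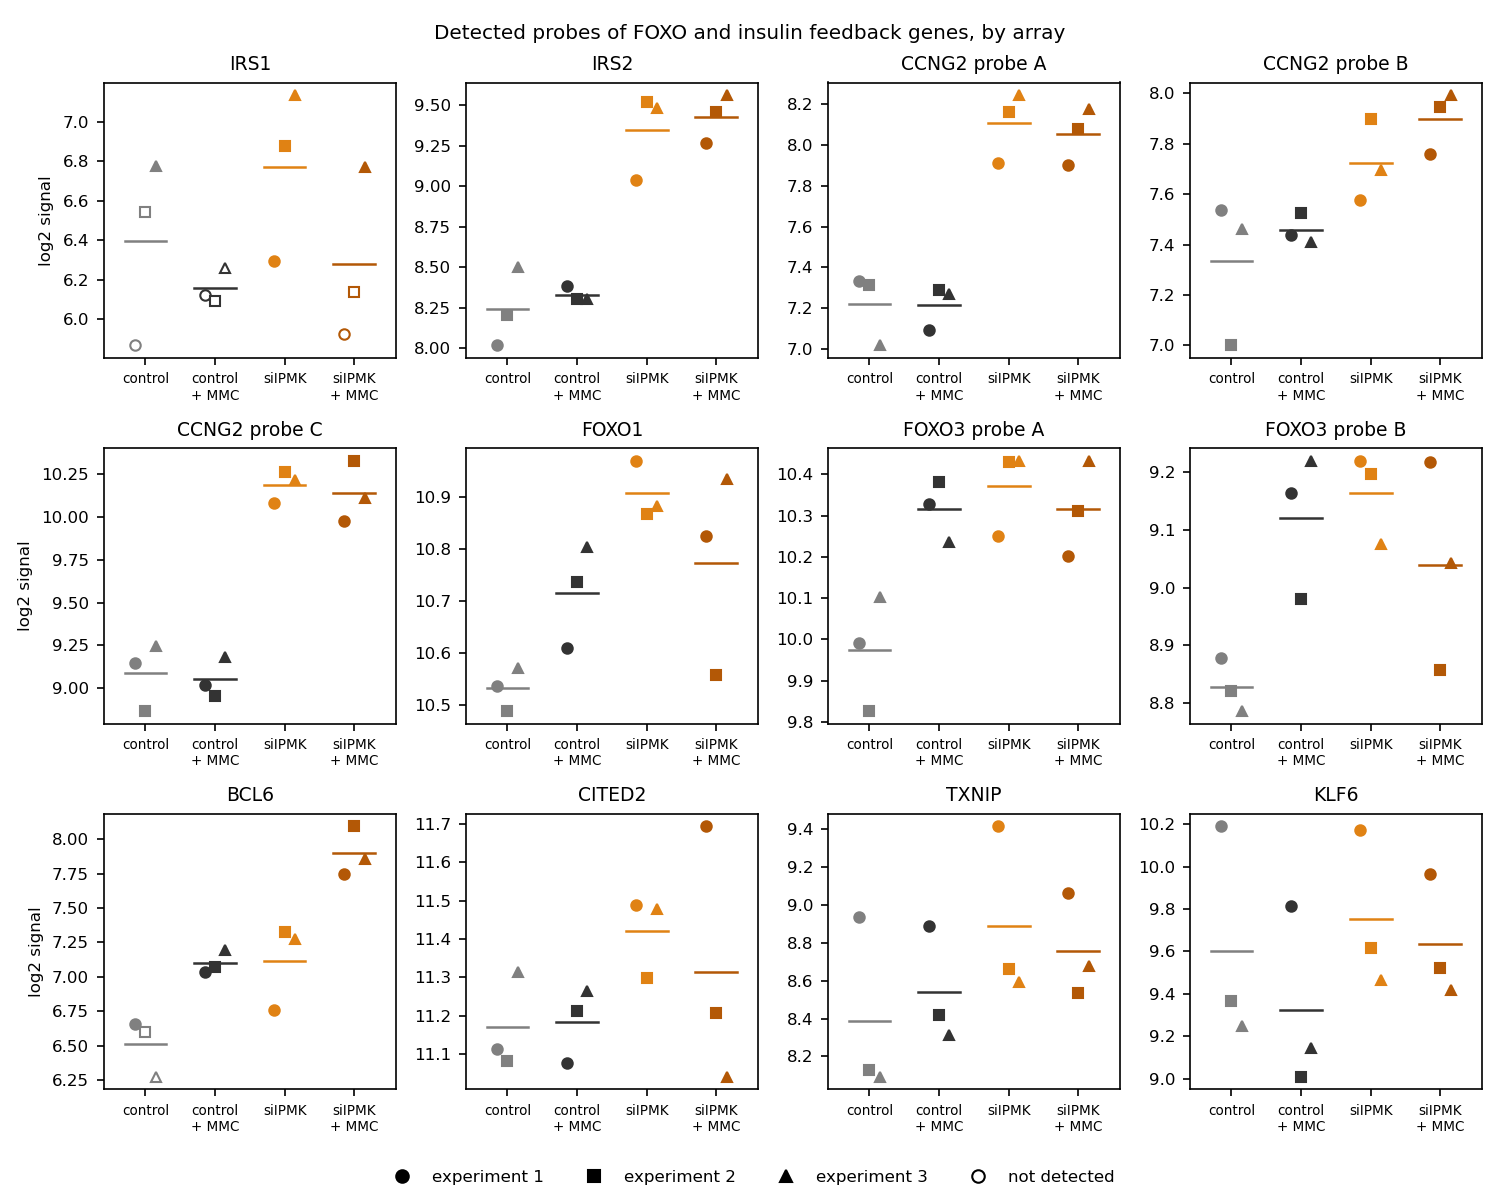
Log2 intensity of the 12 detected probes on each of the 12 arrays, 1 panel per probe with its own vertical scale. Marker shapes give the experiment, open markers an array on which the probe was not detected, and lines the group means; IRS2 and CCNG2 probes A and C stand higher in both siIPMK groups, and TXNIP and KLF6 are highest in experiment 1 within every group.

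Among the receptor and its docking proteins, IRS2 stood out. IRS2 read 8.02, 8.21 and 8.50 with control siRNA, 8.38, 8.30 and 8.30 with control siRNA and MMC, 9.04, 9.52 and 9.49 with siIPMK, and 9.27, 9.46 and 9.56 with siIPMK and MMC. Every siIPMK array lay above every control array, in both treatments. IRS2 rose by 1.11 ± 0.15 without MMC (2.16-fold, adjusted p = 0.000134) and by 1.10 ± 0.15 with MMC (2.14-fold, adjusted p = 0.000176). The lowest of its siIPMK values came from experiment 1 in each treatment. With both siIPMK arrays of experiment 1 left out, the rise was 1.26 without MMC and 1.19 with it.

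IRS1, the other main docking protein, was near the background. It was detected on 1 array with control siRNA, 0 with control siRNA and MMC, 3 with siIPMK and 1 with siIPMK and MMC. IRS1 read 5.87, 6.54 and 6.77 with control siRNA, 6.12, 6.09 and 6.26 with control siRNA and MMC, 6.29, 6.88 and 7.14 with siIPMK, and 5.93, 6.14 and 6.77 with siIPMK and MMC. The groups overlapped throughout. The difference was 0.37 ± 0.28 without MMC (adjusted p = 0.306) with a 95% interval from -0.22 to 0.97, which includes a change of the size seen for FOXO1 and also no change. With MMC it was 0.12 ± 0.28 (adjusted p = 0.756), where the control group was not well above background on any array.

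INSR, the insulin receptor, was detected on 1 control array and on 1 array with siIPMK and MMC. Its values were 5.96, 6.19 and 6.62 with control siRNA, 5.94, 5.92 and 6.19 with control siRNA and MMC, 6.10, 6.24 and 6.06 with siIPMK, and 5.84, 6.14 and 6.43 with siIPMK and MMC. All groups overlapped at a level where the array hardly separated the probe from its negative controls. When probes detected on at least 1 array were admitted to the fit, the siIPMK difference for INSR was -0.12 ± 0.22 without MMC (adjusted p = 0.682) and 0.12 ± 0.22 with it (adjusted p = 0.690). A difference in the receptor transcript was not detectable at this signal.

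CCNG2 encodes cyclin G2, an atypical cyclin known to slow the cell cycle and a known FOXO target. Its probes A and C are annotated to the same RefSeq transcript and probe B to a separate cDNA clone. Probe C read 9.15, 8.87 and 9.25 with control siRNA, 9.02, 8.96 and 9.18 with control siRNA and MMC, 10.09, 10.26 and 10.22 with siIPMK, and 9.98, 10.33 and 10.11 with siIPMK and MMC. The siIPMK arrays formed a band clear of all controls. Probe C rose by 1.10 ± 0.13 without MMC (2.15-fold, adjusted p = 4.87e-05) and by 1.09 ± 0.13 with it (2.13-fold, adjusted p = 6.92e-05).

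Probe A of CCNG2 read 7.33, 7.31 and 7.02 with control siRNA, 7.09, 7.29 and 7.27 with control siRNA and MMC, 7.91, 8.16 and 8.25 with siIPMK, and 7.90, 8.08 and 8.18 with siIPMK and MMC. Again no siIPMK array overlapped a control. The rise was 0.89 ± 0.14 without MMC (adjusted p = 0.000392) and 0.84 ± 0.14 with it (adjusted p = 0.000634). In the authors' deposited log2-like values the same probe changed by 0.52 and 0.49. Probe B read 7.54, 7.00 and 7.46 with control siRNA, 7.44, 7.52 and 7.41 with control siRNA and MMC, 7.58, 7.90 and 7.70 with siIPMK, and 7.76, 7.95 and 7.99 with siIPMK and MMC. Its groups also did not overlap, but the gap without MMC was narrow. Probe B differed by 0.39 ± 0.16 without MMC, which missed the threshold (adjusted p = 0.0622), and rose by 0.44 ± 0.16 with it (adjusted p = 0.0368). That call was lost when any 1 of the control arrays with MMC, or the siIPMK array with MMC of experiment 2 or 3, was left out (adjusted p up to 0.113). In the authors' deposited log2-like values the change with MMC was 0.26. Without MMC the probe passed at 5 of 21 other settings, with adjusted p from 0.00865 to 0.276 over all of them.

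FOXO1 and FOXO3 encode the transcription factors themselves, and both rose by less than IRS2 did. FOXO1 read 10.54, 10.49 and 10.57 with control siRNA, 10.61, 10.74 and 10.80 with control siRNA and MMC, 10.97, 10.87 and 10.88 with siIPMK, and 10.83, 10.56 and 10.93 with siIPMK and MMC. Without MMC the siRNA groups were clear of each other, and with MMC they overlapped. FOXO1 rose by 0.37 ± 0.11 without MMC (1.30-fold, adjusted p = 0.0161), a call that ended without control array 2 (adjusted p = 0.0553). With MMC the difference was 0.06 ± 0.11 (adjusted p = 0.711).

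FOXO3 was read by 2 probes of the same RefSeq transcript. Probe A read 9.99, 9.83 and 10.10 with control siRNA, 10.33, 10.38 and 10.24 with control siRNA and MMC, 10.25, 10.43 and 10.43 with siIPMK, and 10.20, 10.31 and 10.43 with siIPMK and MMC. The untreated controls were the low group, and the 3 other groups shared 1 range. Probe A rose by 0.40 ± 0.11 without MMC (adjusted p = 0.0124) and differed by -1e-04 ± 0.11 with MMC (adjusted p = 1.00, 95% interval -0.24 to 0.24).

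Probe B of FOXO3 read 8.88, 8.82 and 8.79 with control siRNA, 9.16, 8.98 and 9.22 with control siRNA and MMC, 9.22, 9.20 and 9.08 with siIPMK, and 9.22, 8.86 and 9.04 with siIPMK and MMC. The untreated controls again had the lowest mean, though 1 array with siIPMK and MMC, that of experiment 2, lay among them. Probe B rose by 0.34 ± 0.12 without MMC (adjusted p = 0.0395), which ended when any 1 of the 6 untreated arrays was left out (adjusted p up to 0.112). The rise of probe A ended without control array 2 or siIPMK array 2 or 3 (adjusted p up to 0.0627). With MMC the difference of probe B was -0.08 ± 0.12 (adjusted p = 0.614). The genome holds a near-identical copy of FOXO3, and whether these probes also bind its transcript was not tested.

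BCL6 encodes a transcriptional repressor that FOXO factors are known to induce. It was detected on 1 of 3 untreated control arrays and on all 9 others. BCL6 read 6.66, 6.60 and 6.28 with control siRNA, 7.04, 7.07 and 7.20 with control siRNA and MMC, 6.76, 7.33 and 7.28 with siIPMK, and 7.75, 8.09 and 7.86 with siIPMK and MMC. The untreated controls were lowest and the siIPMK arrays with MMC highest, with no overlap between siRNAs in either treatment. BCL6 rose by 0.61 ± 0.18 without MMC (1.53-fold, adjusted p = 0.0148) and by 0.80 ± 0.18 with it (1.74-fold, adjusted p = 0.00309). The first of these calls ended without control array 3 or siIPMK array 2 or 3 (adjusted p up to 0.0742). In the authors' deposited log2-like values the changes were 0.27 and 0.45.

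CITED2, a transcriptional coregulator known as a FOXO target, was an abundant signal with little change. It read 11.11, 11.08 and 11.31 with control siRNA, 11.08, 11.21 and 11.26 with control siRNA and MMC, 11.49, 11.30 and 11.48 with siIPMK, and 11.69, 11.21 and 11.04 with siIPMK and MMC. The groups overlapped. The difference was 0.25 ± 0.14 without MMC (adjusted p = 0.178) and 0.13 ± 0.14 with it (adjusted p = 0.497).

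TXNIP encodes the thioredoxin-interacting protein, which restrains glucose uptake. It read 8.94, 8.13 and 8.09 with control siRNA, 8.89, 8.42 and 8.31 with control siRNA and MMC, 9.41, 8.66 and 8.59 with siIPMK, and 9.06, 8.53 and 8.68 with siIPMK and MMC. Experiment 1 was highest in all 4 groups, and the groups overlapped. The difference was 0.50 ± 0.25 without MMC (adjusted p = 0.129), with a 95% interval from -0.04 to 1.05. It passed without control array 1, that of experiment 1, at 0.78 (adjusted p = 0.0274), and under median scaling at 0.67 (adjusted p = 0.0367). With experiment number as replicate block over all arrays, the same 0.50 passed as well (adjusted p = 0.00383). Over its 22 other settings the adjusted p ran from 0.00383 to 0.440. With MMC the difference was 0.22 ± 0.25 (adjusted p = 0.516).

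KLF6, a zinc finger transcription factor, had the same pattern by experiment. It read 10.19, 9.37 and 9.25 with control siRNA, 9.81, 9.01 and 9.15 with control siRNA and MMC, 10.17, 9.62 and 9.47 with siIPMK, and 9.97, 9.52 and 9.42 with siIPMK and MMC. Experiment 1 was again highest in every group. The difference was 0.15 ± 0.26 without MMC (adjusted p = 0.681) and 0.31 ± 0.26 with it (adjusted p = 0.360), and the spread between experiments was larger than either. With experiment number as replicate block over all arrays, the 0.31 with MMC passed (adjusted p = 0.0333).

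**Figure D2:**
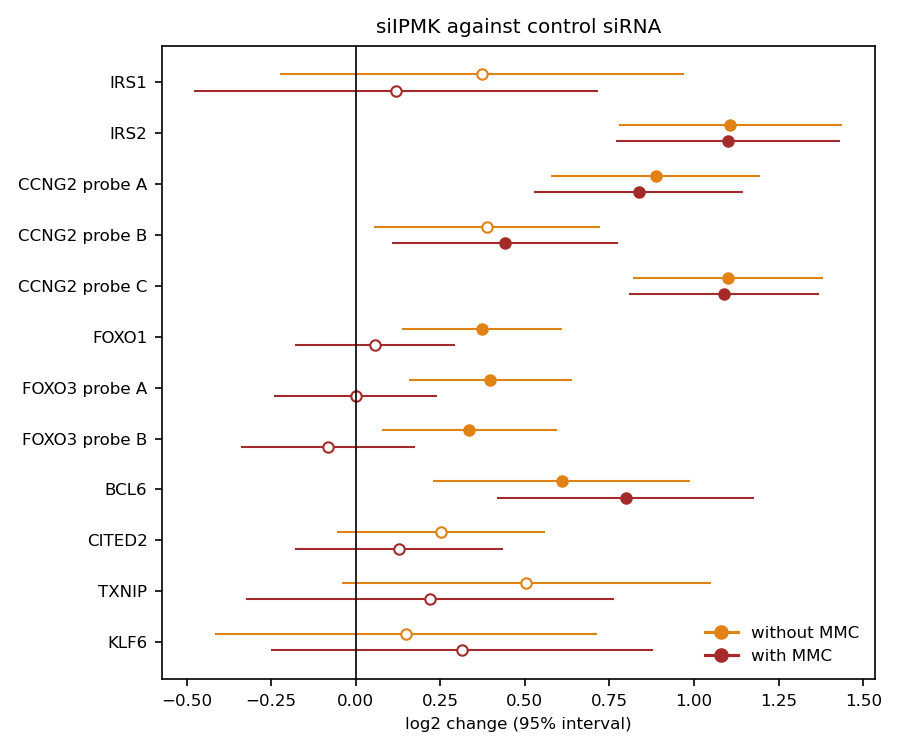
Log2 change of each detected probe for siIPMK against control siRNA, without and with MMC, with 95% intervals of the fit and filled points for an adjusted p under 0.05. IRS2 and CCNG2 probes A and C lie between 0.84 and 1.11 in both comparisons, while the FOXO3 probes lie at 0.40 and 0.34 without MMC and near 0 with it.

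With MMC, IPMK depletion raised 5 of the 12 probes and lowered 0, from the 3 genes IRS2, CCNG2 and BCL6, where 19.7% of all probes rose and 20.3% fell. The median change was 0.27, beside -0.01 over all probes. With 1 probe per gene this was 3 of 9, against 20.7% of genes. The groups did not overlap for these 5 probes, as for 48.1% of all probes. The 2 depletion comparisons share no arrays, since each has its own controls. They are not independent, as same-numbered arrays within a siRNA deviated together and 1 fit gave both standard errors. All 5 probes called here had positive changes without MMC too. Under median scaling in place of quantile normalization, the median over all probes moved to 0.12 in both depletion comparisons. Rises then made up 70.1% of all calls without MMC and 69.0% with it, beside 50.5% and 49.2%. Rises among the members then numbered 9 and 5, and IRS2 lay at 1.27 and 1.24.

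**Figure D3:**
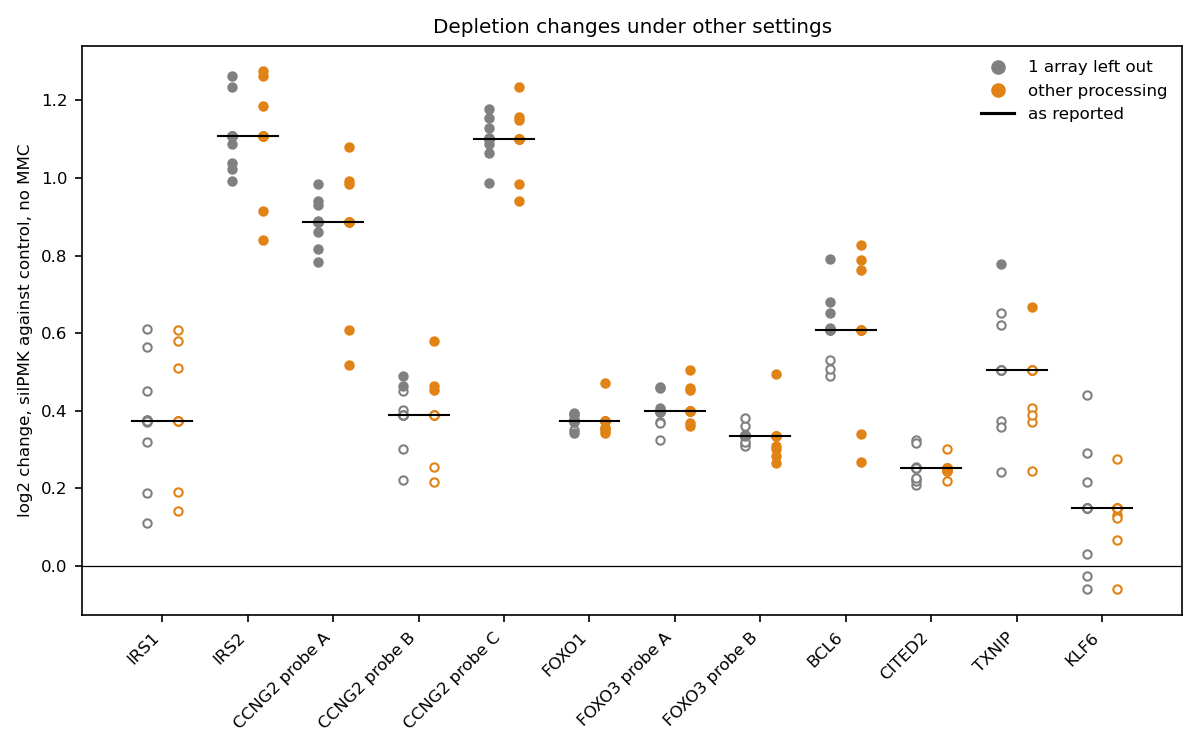
Log2 change for siIPMK against control siRNA without MMC for each detected probe, with 1 array left out in turn (grey) and under other processing (orange), filled where the adjusted p was under 0.05 and with a line at the reported value. IRS2 and CCNG2 probes A and C are filled at every setting, and FOXO3 probe B loses its call in 6 of the left-out sets.

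In the reported fit, which has no replicate block, MMC moved no member past the threshold. With the experiment as a replicate block within siRNA, BCL6 passed under both siRNAs and FOXO3 probe A under control siRNA, as given below. In the reported fit, 0 of the 12 probes were called with control siRNA, against 1.68% of all probes rising and 0.0578% falling. Of the 12, 3 had an unadjusted p under 0.05. The groups did not overlap for 4 probes, those of FOXO1, FOXO3 and BCL6, all higher with MMC, as for 20.6% of all probes in either direction. BCL6 differed by 0.59 ± 0.18 (adjusted p = 0.146), FOXO3 probe A by 0.34 ± 0.11 (adjusted p = 0.203), FOXO3 probe B by 0.29 ± 0.12 (adjusted p = 0.380) and FOXO1 by 0.18 ± 0.11 (adjusted p = 0.627). The difference was 0.09 ± 0.15 for IRS2 and -0.04 ± 0.13 for CCNG2 probe C.

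Arrays of the same experiment number deviated together within each siRNA, so the MMC comparisons were also fitted with the experiment as a replicate block within siRNA. In that fit BCL6 (adjusted p = 0.0131) and FOXO3 probe A (adjusted p = 0.0184) rose with MMC under control siRNA, where 5.44% of all probes rose and 3.50% fell. FOXO3 probe B (adjusted p = 0.0763) and FOXO1 (adjusted p = 0.218) did not pass. Over all the other settings the adjusted p of BCL6 ran up to 0.412 and that of FOXO3 probe A up to 0.668.

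With siIPMK, MMC again gave 0 calls among the 12 probes, with 1 at an unadjusted p under 0.05, against 0.296% of all probes rising and 0.0145% falling. BCL6 was that probe, and the only one whose groups did not overlap, as 9.65% of all probes did not. It differed by 0.78 ± 0.18 (adjusted p = 0.116), and it rose in the fit with the replicate block within siRNA (adjusted p = 0.00352), where 1.64% of all probes rose and 0.832% fell. Over its settings that adjusted p ran up to 0.511. The FOXO transcripts were slightly lower or level with MMC here, by -0.13 ± 0.11 for FOXO1, -0.06 ± 0.11 for FOXO3 probe A and -0.12 ± 0.12 for FOXO3 probe B, none of which passed.

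The difference between the MMC changes under siIPMK and under control siRNA tests whether the siRNA alters the response. It called 0 of the 12 probes, with 2 at an unadjusted p under 0.05, and 0.00723% of all probes. Both of those were FOXO3 probes, at -0.40 ± 0.16 for probe A and -0.42 ± 0.17 for probe B, and FOXO1 lay at -0.32 ± 0.16. The adjusted p was 1.00 for each, and with the replicate block within siRNA it was 0.221, 0.252 and 0.341. The passing of FOXO1 and FOXO3 without MMC and not with it is therefore not shown to be a difference between the treatments. For IRS2 the difference was -0.01 ± 0.22 and for CCNG2 probe C -0.01 ± 0.19.

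**Figure D4:**
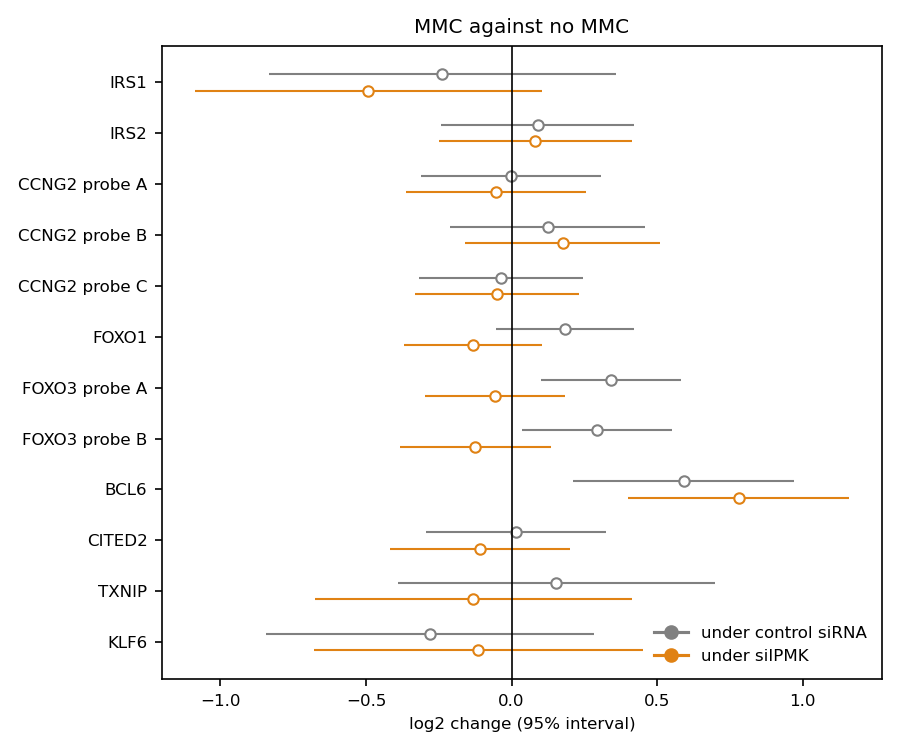
Log2 change of each detected probe for MMC against no MMC, under control siRNA and under siIPMK, with 95% intervals of the fit. No point is filled, that is, none passed at an adjusted p under 0.05 in the reported fit, which has no replicate block. BCL6 lies at 0.59 and 0.78.

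Other genes of the pathway were read from lists, 1 probe per gene, which were also chosen with earlier results of these data known. Of 37 other genes known as FOXO-activated, 23 were measured, and 10 rose and 0 fell with siIPMK without MMC, against 20.3% of genes rising and 19.6% falling. Their median change was 0.54, beside 3e-04 over all genes. The largest were CDKN1A, the cell cycle inhibitor p21, at 1.92 ± 0.15 (adjusted p = 5.09e-06), PIK3IP1, an inhibitor of phosphoinositide 3-kinase, at 1.50 ± 0.29 (adjusted p = 0.00114), and GADD45A, a growth arrest gene, at 1.40 ± 0.13 (adjusted p = 1.03e-05). PIK3IP1 was detected on 1 of 3 arrays in each control group. GLUL, also among the 10 rises, was detected on no untreated control array, which leaves a bound of at least 1.35-fold.

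With MMC, 10 of these 23 rose and 1 fell, against 20.7% and 20.3% of genes, with a median of 0.41 beside 0.01 over all genes. PIK3IP1 changed most, by 1.50 ± 0.29 (adjusted p = 0.00118), followed by the transcription factor KLF2 at 1.07 ± 0.18 (adjusted p = 0.000463) and the stress gene SESN3 at 1.00 ± 0.17 (adjusted p = 0.000527). The 1 that fell was RBL2, a pocket protein of the RB family, at -0.36 ± 0.12 (adjusted p = 0.0256). CDKN1A, GADD45A and SESN1 in this list are also p53 targets. They moved with MMC too, under control siRNA by 1.97 ± 0.15, 1.19 ± 0.13 and 1.55 ± 0.13. The part of p53 in the depletion changes was not tested. Of 6 measured genes of a short p53 list that overlaps this one, siIPMK raised 4 and lowered 0 without MMC, with a median of 0.88. Over all genes 20.3% rose and 19.6% fell. With MMC it raised 2 and lowered 2, against 20.7% and 20.3%, with a median of 0.11. MMC raised 5 of the 6 under control siRNA and 3 under siIPMK, and lowered 0. Over all genes 1.86% and 0.351% rose and 0.0638% and 0.0106% fell. MDM2, counted with siIPMK without MMC and with MMC under control siRNA, was detected on no untreated control array. Its bounds there were under 1 and 1.05-fold.

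Of the 23 FOXO-activated genes, 4 rose with MMC under control siRNA, where 1.86% of genes rose and 0.0638% fell. With the replicate block within siRNA, 7 rose and 1, KLF2, fell (-0.45, adjusted p = 0.00315). Under siIPMK 3 rose, where 0.351% of genes rose and 0.0106% fell, and 4 with the block. The count of 3 rested on single arrays: it was 0 without array 2 or 3 with siIPMK and MMC, 1 without siIPMK array 1 or 2, and 2 without any other array but untreated control array 1 or 3.

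Of 34 insulin, phosphoinositide 3-kinase and AKT pathway genes, 25 were measured, and 10 rose and 1 fell with siIPMK without MMC, against 20.3% and 19.6% of genes, with a median of 0.18. With MMC 11 rose and 0 fell, against 20.7% and 20.3%, with a median of 0.33. SGK1, a kinase related to AKT, changed most, by 1.60 ± 0.32 without MMC (adjusted p = 0.00151) and 2.06 ± 0.32 with it (adjusted p = 0.000311). GAB2, a docking protein like the IRS proteins, rose by 1.23 ± 0.17 (adjusted p = 0.000137) and 1.30 ± 0.17 (adjusted p = 0.000125). IGF1R, the receptor most like INSR, was not well above background on any control array and on 3 of 3 and 2 of 3 siIPMK arrays, so its rise is a bound of at least 1.35-fold without MMC (adjusted p = 0.00579) and at least 1.27-fold with it (adjusted p = 0.00383), taken against the lowest signal well above background. GAB1 and SOCS3, counted among the rises in both treatments, were likewise detected on no control array. Like IGF1R, they passed the detection filter only through siIPMK arrays. The bound was 1.025-fold without MMC and under 1 with it for GAB1, and 1.26- and 1.49-fold for SOCS3. These 2 genes are named for this limit only. TRIB3, a pseudokinase known to bind AKT, fell by 0.42 ± 0.13 without MMC (adjusted p = 0.0227). MMC called 0 of these 25 genes under either siRNA. With the replicate block within siRNA, SGK1 fell under control siRNA (-0.50, adjusted p = 0.0192) and the adaptor SHC1 rose under siIPMK (0.43, adjusted p = 0.00378). Both are named because they were the only genes of the list called there, chosen after their values were seen.

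Of 21 genes known to regulate FOXO proteins, all 21 were measured, and 4 rose and 4 fell with siIPMK in each treatment, with medians of 0.01 and -0.02. These counts were near the background, where 20.3% of genes rose and 19.6% fell without MMC and 20.7% and 20.3% with it. Rises fell to 2 without control array 2 or siIPMK array 2 or 3 in the first comparison, and without control array 1 or siIPMK array 2, both with MMC, in the second. SKP2, a ubiquitin ligase subunit known to act on FOXO1, fell by 1.10 ± 0.24 without MMC (adjusted p = 0.00256), CDK2 by 0.81 ± 0.21 (adjusted p = 0.00809) and STK4, a kinase, by 0.77 ± 0.12 (adjusted p = 0.000274). SMAD3, a transcription factor that pairs with FOXO proteins, rose by 0.82 ± 0.16 (adjusted p = 0.00132).

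Among 10 measured genes closest to the members by family, 3 rose and 0 fell without MMC, against 20.3% and 19.6% of genes, and 4 rose and 1 fell with it, against 20.7% and 20.3%. Rises ranged from 1 to 5 and from 2 to 5 over other processing settings, with the lowest counts where only genes detected on all 12 arrays, 6 of the 10, were kept. CITED4, a relative of CITED2, rose by 1.89 ± 0.12 (adjusted p = 6.78e-07) and 1.68 ± 0.12 (adjusted p = 2.69e-06). CITED2 itself did not pass in the reported fit, and the 2 genes were not tested against each other. ARRDC4, the closest relative of TXNIP among those listed, was not well above background on any control array, which gives bounds of at least 1.97-fold (adjusted p = 8.62e-06) and at least 2.59-fold (adjusted p = 1.49e-05). IGF1R and ARRDC4, counted among these rises in both treatments, passed the detection filter only through siIPMK arrays. Their rises are therefore not independent of that filter, and IGF1R is also counted in the insulin list. A further list held 8 thioredoxin and Mondo factor genes, of which 6 were measured. In each treatment 2 of the 6 rose and 0 fell, with medians of 0.10 without MMC and 0.14 with it. Over all genes 20.3% rose and 19.6% fell without MMC, and 20.7% and 20.3% with it. The 2 were ARRDC4 and TXN, the thioredoxin that TXNIP binds. TXN rose by 0.48 ± 0.09 (adjusted p = 0.00084) and 0.36 ± 0.09 (adjusted p = 0.00539). In their promoter windows, 4 of the 30 other FOXO-activated genes with a window held GTAAACA, or 13.3%, beside 4.19% of all genes. They were PIK3IP1, which rose, BCL2L11 at 0.00 ± 0.25 and DEPP1 at 0.69 ± 0.54 without MMC, neither of which passed, and MXI1, which was not measured. CAAAACA was in 3 of these 30, beside 6.05% of all genes. Of 29 insulin pathway genes with a window, 3.45% held GTAAACA and 17.2% held CAAAACA.

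**Figure D5:**
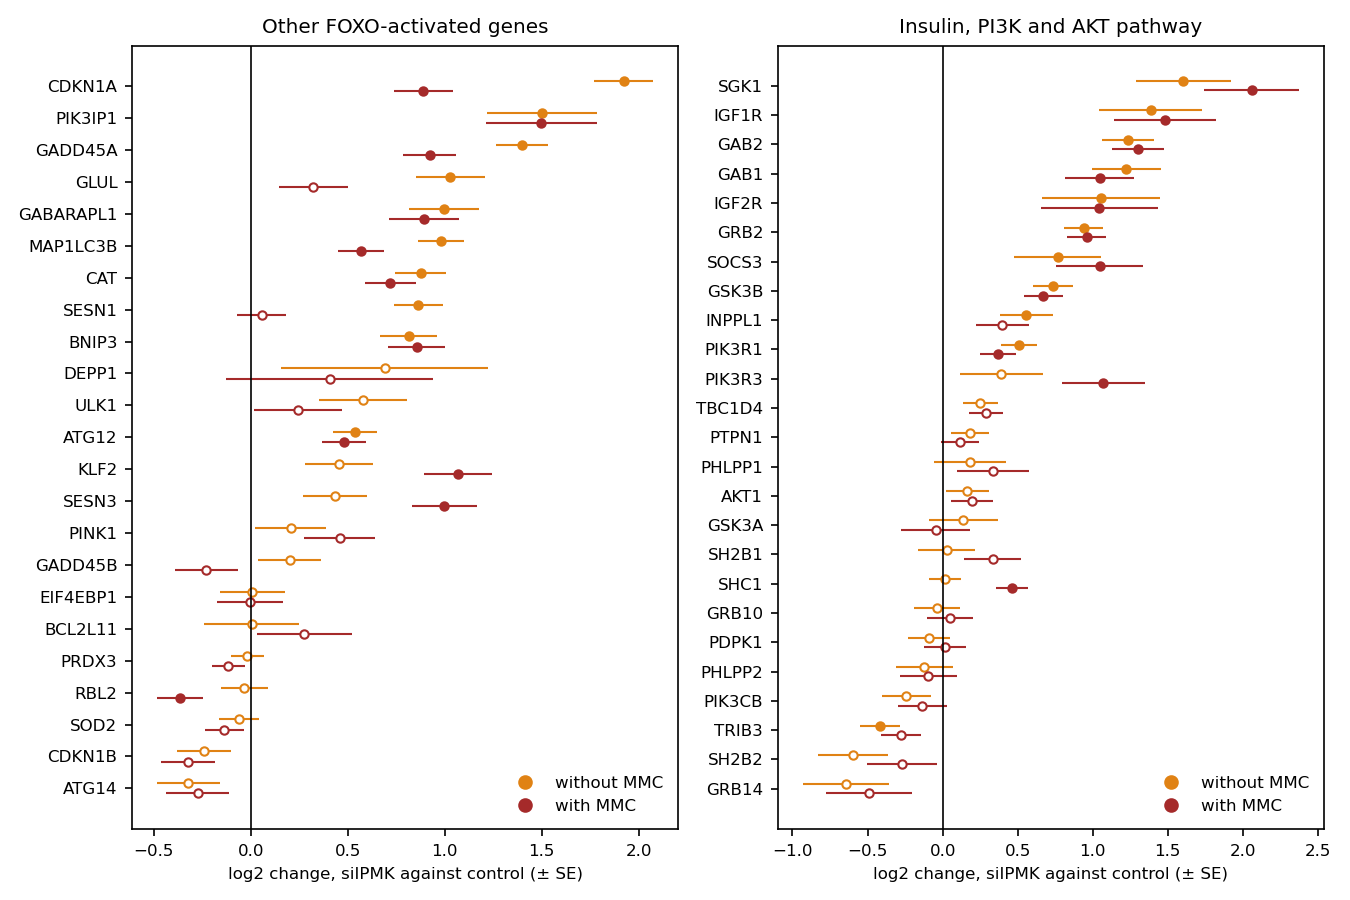
Log2 change with siIPMK against control siRNA, without and with MMC, for the measured genes of the other FOXO-activated list and of the insulin, phosphoinositide 3-kinase and AKT list, with standard errors and filled points for an adjusted p under 0.05. CDKN1A and SGK1 lie farthest to the right without MMC, at 1.92 and 1.60, and the filled points on the negative side are TRIB3 without MMC and RBL2 with it.

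The genes whose profile over the 12 arrays was most like that of a called member were ranked by Pearson's r, as a description of arrays that part mainly by siRNA. Nearest to IRS2 were CD24 (r = 0.989), SPATS2L (r = 0.988) and RDH10 (r = 0.984). Nearest to CCNG2 probe C were GRB2, an adaptor of the same signalling pathway (r = 0.991), ST3GAL5 (r = 0.984) and OTOF (r = 0.983). The other CCNG2 probes had other nearest genes. These were STARD3NL (r = 0.984), INTS6 (r = 0.984) and GLRX (r = 0.983) for probe A. For probe B they were TSC22D4 (r = 0.961), RPS19 (r = 0.943) and NUDT18 (r = 0.932). BCL6, with its lowest mean in the untreated controls and its highest with siIPMK and MMC, was most like IRF1 (r = 0.971), PALLD (r = 0.959) and GRHL3 (r = 0.955). The FOXO transcripts had looser neighbours, with SDCBP at r = 0.908 for FOXO1, NICN1 at r = 0.920 for FOXO3 probe A and PELI2 at r = 0.860 for FOXO3 probe B.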

How the data were processed

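The authors deposited a table of bead intensities with, per the file headers, a mean intensity, a detection p-value and a bead number for each probe and array, and a second table on a log2-like scale. The deposited log2-like table had equal sorted columns to within 0.00101 and a median of 8.82. Per the submitters' processing notes the authors used lumi, and the transform is not given in the sources used here.

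Starting from the intensities, limma 3.58.1 under R 4.3.3 gave the values reported: normal-exponential background correction inferred from the detection p-values, offset 16, quantile normalization and log2. Probes were named from the platform annotation for 12850 probes with 1 symbol; 2 had several, 2001 probes of the authors' table had none, and 12847 symbols were updated through their Entrez identifiers. One model with 4 group means and trended variances was fitted to 13830 probes and tested on simulated data. Whether the experiments were separate cultures is not given, so p-values measure the spread between arrays, whose number limits the precision. Same-numbered arrays within a siRNA deviated together in 6 of 6 pairs (r 0.182 to 0.689).

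A group with no detected array got a bound, against the higher of its own signal and the array's lowest detected signal. All member probes are named. From other lists, at most the 3 largest rises and 3 largest falls that passed without overlap of replicates are named. Other genes are named only for a limit or reason given beside them. Members and lists were chosen with earlier results of these data known.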

Additional observations from a re-analysis of the deposited data

How the results depend on the processing

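No value changed sign and remained called under any alternative. Leaving out 1 array at a time, member rises ranged from 4 to 8 without MMC (4 without control array 2, siIPMK array 2 or siIPMK array 3) and from 4 to 5 with MMC. With 1 probe per gene, 3 of 9 rose with MMC. Member rises with MMC against no MMC under control siRNA were 2 with the replicate block within siRNA, 2 with array weights and 1 without both siIPMK arrays of experiment 1, and under siIPMK they were 1 with the block and 1 with array weights; the cause was not tested. Across siRNAs the deviations of the 12 same-numbered pairs correlated weakly (r -0.0216 to 0.193, median 0.0822), beside a median of -0.0165 for different numbers. A weak pairing across siRNAs over all probes was thus left out of the reported fit. With experiment number as replicate block over all arrays, TXNIP without MMC (adjusted p = 0.00383) and KLF6 with MMC (adjusted p = 0.0333) passed. TXNIP also passed under median scaling (adjusted p = 0.0367) and without control array 1 (0.78, adjusted p = 0.0274), and was 0.24 without both siIPMK arrays of experiment 1. CCNG2 probe B without MMC ran from 0.21 to 0.58, with adjusted p from 0.00865 to 0.276, and passed at 5 settings. IRS2 without MMC ran from 0.84 to 1.27 with adjusted p of at most 0.00143, and CCNG2 probe C from 0.94 to 1.24. BCL6 without MMC was 0.34 with no background correction. Other FOXO-activated genes rising without MMC numbered 8 to 14, and insulin pathway genes 6 to 11. Over all probes, MMC under control siRNA gave 233 rises and 8 falls, and 752 and 484 with the within-siRNA block; under siIPMK these were 41 and 2, and 227 and 115. Signal near background limits IRS1, INSR and BCL6.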
